A study of Drosophila virilis and Drosophila yakuba with 2 samples.

Results

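Of the 16077 gene models measured in heads of Drosophila yakuba, 1395 (8.68%) lay on sequences other than the named arms 2L, 2R, 3L, 3R, 4 and X, and these off-arm models are described here. They were chosen by the name of their sequence alone, with no use of expression, and they were spread over 599 sequences. The study profiled 1 stranded total RNA library of D. yakuba and 1 of D. virilis, each made from 1 µg of total RNA from dissected heads. Both came from wild-type stock-centre flies, and the donors were females that had mated and were between 2 and 5 days old. Levels are in FPKM, a fragment count divided by the length of the transcript and by the library's total. The spans given below include introns and can exceed that length. With 1 library per species there is no replicate error, so the values below are counts and levels in a single library and no difference was tested.

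An arm of an assembled fly chromosome is mostly euchromatin, the loosely packed and gene-rich part. The rest, around the centromeres and on the Y chromosome, is heterochromatin, which is compact, rich in repeats and poor in genes, and which genome assemblies join only in pieces. Pieces that could be tied to an arm but not ordered along it are kept as "random" sequences, and pieces that could not be tied to any chromosome are kept as unassigned sequences. Some genes reside in heterochromatin in D. melanogaster and are transcribed there, among them the ribosomal protein gene RpL15 and the G protein gene cta.

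The 1395 models were split by name into 3 classes. The heterochromatic class held 127 models on 14 sequences whose names carry an h after the chromosome (chromosomes 2, 3, X and Y). The other random class held 797 models on 290 sequences, of which 505 models on 161 sequences were named for 3L. The unassigned class held 471 models on 295 sequences, including 21 models on sequences named Uh. Few head markers carried a symbol in the library. Of 12 genes listed as photoreceptor markers Arr1, Pdh and chp were found, at 378 to 2177 FPKM, although Pdh belongs to the retinal pigment cells. Of 11 muscle markers 7 were found, with a median of 406 FPKM, and the ovary markers dec-1 and bam were at 2.81 and 1.17 FPKM. Of 8 neuron markers only fne was found, at 24.5 FPKM, and of 6 fat body markers only to, at 39.2 FPKM. The symbols therefore barely covered the neuronal part of the head, which is a limit of the names and no measure of neuronal RNA. The share of low values near a whole number of fragments was largest, at 38.4% of 398 models and 23.3% of the 43 off-arm ones among them, for a library total of about 62500000 fragments (near-best fits 61250000 to 64750000). This total is an estimate, since most of the low values did not fall on such steps. A floor of 3 fragments over 1 kb, with the fragment length not taken off, then corresponded to 0.048 FPKM, for counting error only.

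Fewer of the off-arm models than of the arm models reached 1 FPKM, and those that did had a lower median. At least 1 FPKM was reached by 551 off-arm models (39.5%), against 10009 of 14682 arm models (68.2%) and 65.7% of all models in the library. A value of 0 was listed for 355 off-arm models (25.4%) and for 1349 arm models (9.19%). Another 489 off-arm models (35.1%) lay above 0 and below 1 FPKM, against 22.6% on the arms. Over all models the median was 0.354 FPKM off the arms and 4.85 FPKM on them, and over the models at 1 FPKM or more it was 7.69 FPKM (quartiles 3.02 and 19.2) against 10.6 FPKM (4.52 and 23.2). Off-arm models made up 8.68% of the models and 4.40% of the summed FPKM.

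The 3 classes differed from each other. The other random models had the highest expressed share, with 387 of 797 at 1 FPKM or more (48.6%) and 150 at 0 (18.8%). The heterochromatic models followed, with 50 of 127 at 1 FPKM or more (39.4%) and 32 at 0 (25.2%). The unassigned models were lowest, with 114 of 471 at 1 FPKM or more (24.2%) and 173 at 0 (36.7%). Among the expressed models the medians were 9.18 FPKM for heterochromatic, 7.62 FPKM for other random and 7.38 FPKM for unassigned models. The upper quartiles were further apart, at 30.3, 15.2 and 23.9 FPKM. That of the heterochromatic models was above the 23.2 FPKM of the arms, while their lower quartile, 2.19 FPKM, was below the 4.52 FPKM of the arms.

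**Figure D1:**
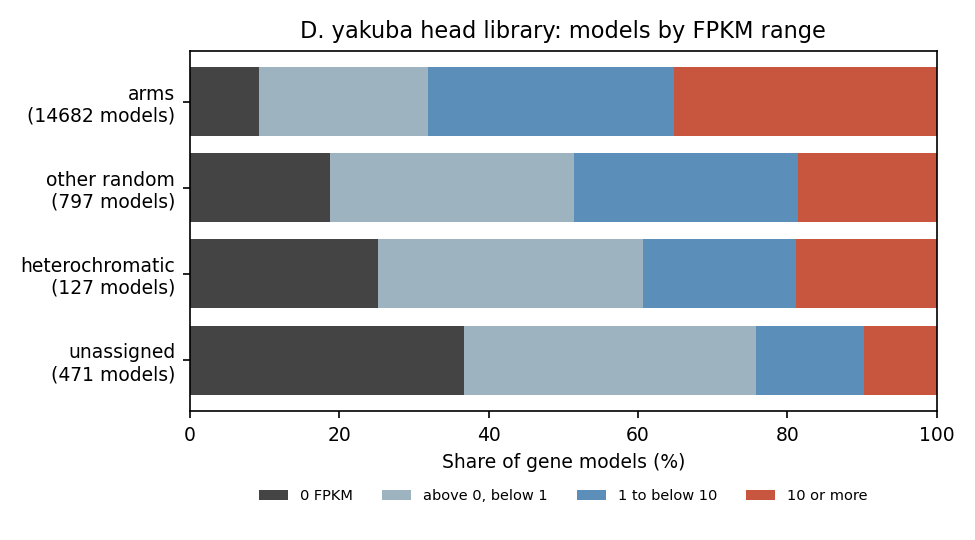
Share of gene models (horizontal axis, percent) in 4 ranges of FPKM for the arms and the 3 off-arm classes in the 1 D. yakuba library. The share at 0 FPKM grows from 9.19% on the arms to 36.7% on unassigned sequences, and the share at 10 FPKM or more falls from 35.2% to 9.77%.

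By the chromosome in the name, expression was uneven. Sequences named 3L random and 3R random had 52.1% and 53.7% of their models at 1 FPKM or more, while 2L random and X random had 29.2% and 31.7%. The 9 models of 2R random had the highest share and level of the random groups, with 7 at 1 FPKM or more and a median of 31.7 FPKM among those 7. The 31 expressed models of 2L random nevertheless had a median of 25.1 FPKM, against 7.69 FPKM for the 263 of 3L random and 4.13 FPKM for the 73 of 3R random. Of the heterochromatic sequences, the 12 models of Xh had 8 at 1 FPKM or more, the 24 models of the sequence chr2h had 10, and the 77 models of the remaining chromosome 2 sequences had 28. The sequence chr3h held 4 models, none of which reached 1 FPKM. The Y chromosome does not occur in females as a rule, and the 2 models of the sequence named Yh were at 0 FPKM (GE19822) and 0.0363 FPKM (GE19811, a model of 69072 bp). The latter is under the 3-fragment floor for 1 kb, although the transcript length behind it is not known.

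Off-arm models were also shorter. Their median span was 833 bp (quartiles 425.5 and 1827.5), against 1542 bp on the arms, and it was 1010 bp for other random, 840 bp for heterochromatic and 567 bp for unassigned models. Spans under 300 bp were held by 12.5% of off-arm and 5.32% of arm models. A span that was a multiple of 3, as a coding sequence without introns gives, was held by 66.9% of unassigned, 56.7% of heterochromatic, 50.1% of other random and 47.9% of arm models. Short models were listed at 0 more often everywhere: under 300 bp, 50.0% of off-arm and 42.4% of arm models were at 0.

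The gap was smaller but still present with spans matched. When the arm models were weighted to the spans of the off-arm models in 10 bins, 61.7% of them were at 1 FPKM or more, which left the off-arm share 22.2 percentage points lower in place of 28.7 (difference -22.2 against -28.7). The weighted arm share listed at 0 was 14.4%, against 25.4% off the arms. With spans matched the difference was -14.8 points for other random, -24.3 points for heterochromatic and -34.1 points for unassigned models. Among spans of 6000 bp or more, 38 of 56 other random, 13 of 21 heterochromatic and 9 of 25 unassigned models were at 1 FPKM or more, against 86.9% of 1869 arm models.

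**Figure D2:**
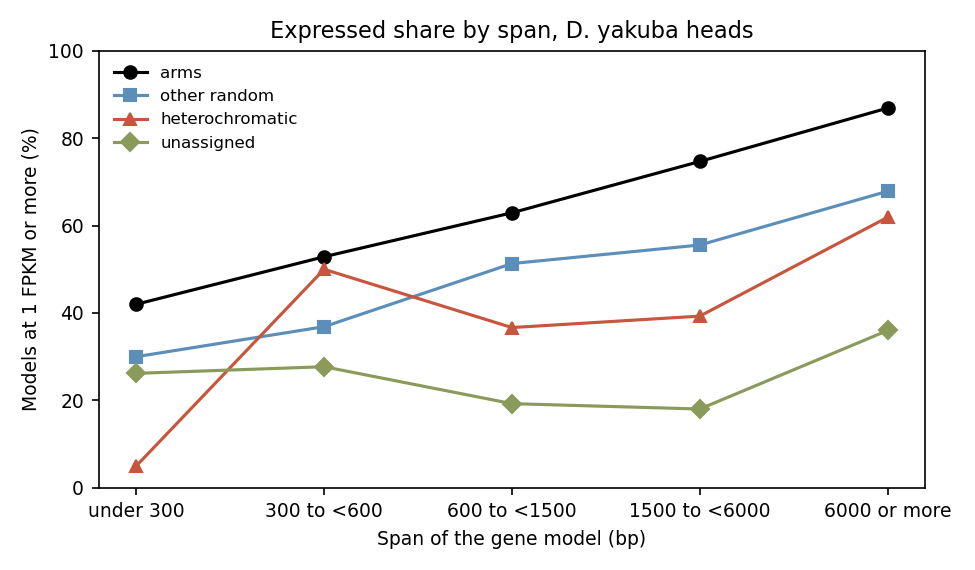
Share of models at 1 FPKM or more (vertical axis, percent) by span of the gene model (horizontal axis, bp) for the arms and the 3 off-arm classes. The arms rise from 42.0% under 300 bp to 86.9% at 6000 bp or more and lie above all 3 classes in every bin, while the unassigned models are at 26.2% under 300 bp and at 19.3% from 600 to below 1500 bp.

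The expressed share was similar on sequences with few and with many models. The 396 models that were alone on their sequence had 39.6% at 1 FPKM or more, and the 197 models on the 7 sequences with 20 or more models had 41.1%, with the groups between at 37.7% to 42.0%. Position at the edge of a sequence went with a higher share. Of the 67 models that began within 100 bp of the start of their sequence, 40 (59.7%) reached 1 FPKM, against 38.5% of the 1328 that began further in. The split was present in both classes that held such models, with 62.9% against 47.9% in other random and 56.3% against 21.9% in unassigned models. Whether models at an edge are complete was not tested, and the far ends of the sequences were not analysed here.

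A symbol was carried by 11 off-arm models, and all others had a systematic identifier. These 11 genes were high: 10 were at 1 FPKM or more and 6 at 100 FPKM or more, with a median of 112 FPKM, against a median of 22.4 FPKM for the 486 arm models with a symbol and 0.335 FPKM for the 1384 off-arm models without one. Of the 11, 4 were heterochromatic, 7 other random and 0 unassigned. On the arms 130 of the 486 genes with a symbol were at 100 FPKM or more.

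Among the heterochromatic genes, yip6 had 1291 FPKM (FBgn0067916, v2_chr2h_random_002, 98502 to 100128). The ribosomal protein gene RpL15 had 1250 FPKM (FBgn0068079, v2_chr3h_random_002, 525965 to 526757), and it was the only one of the 11 symbols that was also present in the D. virilis table, at 754 FPKM, a difference in which species, annotation and library cannot be told apart. That sequence held 8 models, of which 4 were at 0 and the other 4 were at 27.1 FPKM or more. Scp1, which encodes a sarcoplasmic calcium-binding protein, had 112 FPKM (FBgn0068039, chr2h, 469120 to 498535) over a span of 29416 bp. On the same sequence, cta, the G protein alpha subunit gene concertina that acts in gastrulation, had 21.2 FPKM (FBgn0067990, 692393 to 698368). Every heterochromatic gene with a symbol was above the median of expressed arm models, 10.6 FPKM. Against the median of the arm models with a symbol, 22.4 FPKM, cta was lower and the others were higher.

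The genes with a symbol on other random sequences ran over a wider range. Pdh, a photoreceptor dehydrogenase gene of the retinal pigment cells, had 1296 FPKM (FBgn0068104, v2_chr3L_random_057, 2568 to 3472). The neuropeptide precursor gene Nplp3 had 958 FPKM (FBgn0068114, v2_chr3L_random_130, 21313 to 21689), and RpS27A, which encodes a ribosomal protein fused to ubiquitin, had 602 FPKM (FBgn0068051, v2_chr2L_random_006, 941 to 1595). Lower levels belonged to gus, whose product binds the germline helicase Vasa in D. melanogaster, at 67.1 FPKM (FBgn0067966, v2_chr2L_random_028, 806008 to 819614). SsRbeta, a subunit gene of the signal sequence receptor complex of the endoplasmic reticulum, had 64.0 FPKM (FBgn0068028, v2_chr3L_random_118, 3579 to 4461). TpnC4, a troponin C gene of flight muscle, had 51.1 FPKM (FBgn0068016, v2_chr2L_random_001, 287651 to 289466). The serine protease gene Ser99Dc was the exception, at 0.418 FPKM (FBgn0068034, v2_chr3R_random_004, 1354 to 2228). Of 32 genes listed as residents of pericentromeric heterochromatin in D. melanogaster, 3 carried their symbol in the yakuba table, RpL15 and cta off the arms and CkIIalpha, a casein kinase subunit gene, on 3L at 62.2 FPKM. None of 12 Y-linked and 6 histone symbols was found. Only identical symbols were counted, so a listed gene under another name, off the arms or on them, would be missed.

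**Figure D3:**
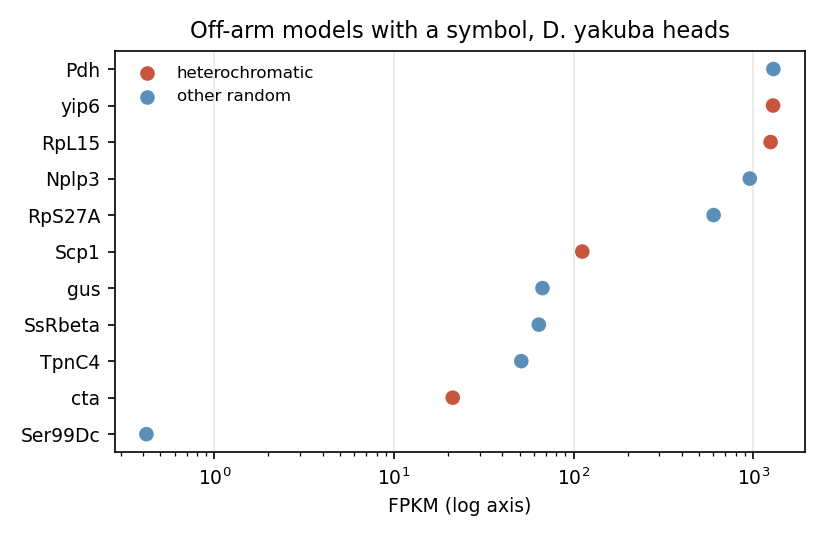
FPKM (horizontal log axis) of the 11 off-arm D. yakuba models that carry a gene symbol, coloured by class, 1 library. Values run from 0.418 FPKM for Ser99Dc to 1296 FPKM for Pdh, and 10 of the 11 lie above 20 FPKM.

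A few models held most of the off-arm signal, but no like share was computed for the arms. The 15 highest made up 55.8% of the summed off-arm FPKM, and 10 of them had no symbol. The highest was GE23101 at 1977 FPKM (FBgn0240302, v2_chr3L_random_058, 21799 to 22432), which ranked 12 among all models of the library. The same sequence held GE23099 at 1173 FPKM (FBgn0240300, 15846 to 16222). The highest unassigned model was GE14854 at 304 FPKM, with a span of 163531 bp (FBgn0232445, v2_chrUn_008, 57301 to 220831) and 1 other model overlapping it. Next in that class were GE15142, GE14995, GE14574 and GE15076 at 201, 159, 133 and 116 FPKM, with spans of 213 to 399 bp. The remaining models among the 15 were GE11221 (276 FPKM) and GE11140 (163 FPKM) on 3R random, GE14476 (231 FPKM) on 2R random, GE11007 (196 FPKM) and GE10999 (170 FPKM) on X random and GE22683 (252 FPKM) on chr2h. GE11221 spanned only 195 bp, and GE14995 and GE14574 only 213 bp. These spans are close to the estimated fragment length of 165 bp, where FPKM is least certain. On the sequence that holds RpL15, GE19761 had 120 FPKM, next below GE22683 among the heterochromatic models and above Scp1.

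With the 3 classes pooled, long models were nearly as frequent off the arms as on them, but the classes differed. A span of 20000 bp or more was held by 32 off-arm models (2.29%) and 427 arm models (2.91%). Of the 32, 21 were at 1 FPKM or more (65.6%), with a median of 27.1 FPKM among those 21, against 90.4% and 14.2 FPKM on the arms. The 5 longest were all above 20 FPKM. GE19165 spanned 252576 bp and had 21.2 FPKM, and GE19740, on the RpL15 sequence, spanned 230672 bp and had 31.9 FPKM. GE14854, the highest unassigned model, was also among the 5. GE11256 on 2L random spanned 149231 bp and had 20.8 FPKM, and GE18632 on a chromosome 2 heterochromatic sequence spanned 90589 bp and had 43.9 FPKM. Of the 32 long models, 12 were heterochromatic, in a class of 127 models. Another 10 were other random, in a class of 797, and 10 were unassigned, in a class of 471. Long models were thus most frequent in the heterochromatic class.

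The 7 sequences with 20 or more models ranged from nearly silent to mostly expressed. On v2_chr3L_random_063, 24 of 30 models were at 1 FPKM or more, with a median of 8.34 FPKM over all 30 and GE23121 highest at 57.5 FPKM. On v2_chr3L_random_094, 2 of 22 were (9.09%), 12 were at 0, and GE22823 was highest at 8.77 FPKM. The largest sequence, v2_chr2L_random_028 with gus as its highest model, had 17 of 51 at 1 FPKM or more (33.3%). The others were v2_chr2h_random_004 at 57.7% (highest GE25059, 64.4 FPKM), chr2h at 41.7% (highest GE22683), v2_chr3L_random_081 at 39.1% (highest GE23149, 33.9 FPKM) and v2_chrUn_001 with 4 of 21 (highest GE14900, 28.8 FPKM).

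**Figure D4:**
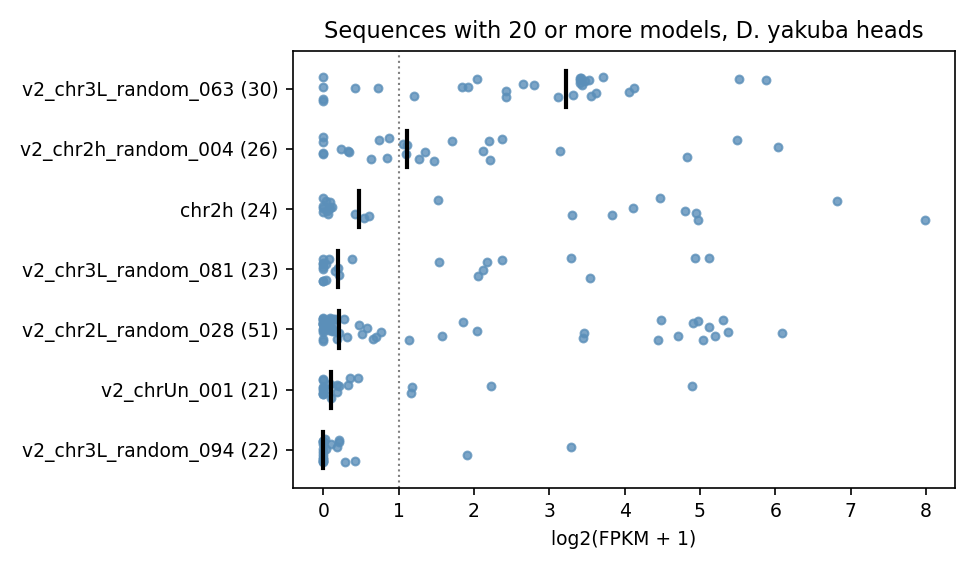
Expression of every model on the 7 off-arm sequences with 20 or more models, as log2(FPKM + 1). Points are models, black bars are medians, the dotted line marks 1 FPKM, and the number of models is in brackets. The sequences are ordered by expressed share, from 2 of 22 models on v2_chr3L_random_094 to 24 of 30 on v2_chr3L_random_063.

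Some random sequences held runs of models whose spans matched, in order, those of models on the arm they were named for. On the 115 off-arm sequences with 3 or more models (823 models), runs of 3 or more consecutive models were sought whose spans matched, within 1% or 3 bp, a run of consecutive models on any of the 6 arms, in the same or the reversed order. Of the 18 runs found, 16 fell on the arm in the sequence's own name, 15 of them on 3L and 1 on 3R, although every sequence was compared with all 6 arms. These 16 runs lay on 14 sequences and held 65 models, 39 of them with an identical span. The other 2 runs held 6 models. None of the 10 heterochromatic and 32 unassigned sequences searched gave a run. Of the 357 models on the 53 3L random sequences searched, 16.8% were in a run on 3L. The 15 runs on 3L lay between positions 18005009 and 22951038 of the arm, whose last model ends at 24190056, and 8 were in reversed order.

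The search did not use FPKM, and matched models expressed in both places had similar values. All 65 models of the runs on the named arm were on the same side of 1 FPKM as their partner, and 14 of these pairs were at 0 in both places. Both partners were at 1 FPKM or more in 33 pairs, and all 33 were within 2-fold of each other, 26 of them within 1.5-fold, with a median difference of 1.24-fold. Off-arm values were higher in 20 of the 33, arm values in 12, and GE23078 and GE19595 were both at 6.67 FPKM. Below 1 FPKM the values spread more. Of the 16 pairs above 0 and below 1 FPKM in both places, 11 were within 2-fold, and the largest difference was that of GE22981 at 0.262 FPKM and GE22296 at 0.0374 FPKM. The next were GE22824 and GE19815 at 0.154 and 0.0289 FPKM, GE23146 and GE22242 at 0.157 and 0.628 FPKM, and GE23170 and GE22293 at 0.385 and 0.107 FPKM. In the last 2 of the 65 pairs 1 partner was at 0. Across these 33 pairs the Pearson r of log2 FPKM was 0.953 and Spearman's rho 0.938, given as a description, since partners come from the same library and neighbouring models are not independent. In the 6 pairs of the runs on another arm, 1 was on the same side of 1 FPKM. How fragments that align to both places were assigned is not given in the sources used here, so each of the 65 values is uncertain.

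Single pairs of the runs are given here by their levels. Partners were matched by span and order alone, and whether they are copies of 1 gene was not tested. On v2_chr3L_random_150, 4 models had spans identical to those of 4 consecutive models on 3L. GE22782 had 9.09 FPKM and its partner GE22522 had 8.58 FPKM. GE22783 and GE22523 had 6.18 and 5.53 FPKM, and GE22781 and GE22520 had 2.15 and 2.10 FPKM. GE23189, the lowest of the run at 0.399 FPKM, had a partner, GE19587, at 0.349 FPKM. The longest run, 7 models on v2_chr3L_random_081, had its highest model GE23145 at 29.5 FPKM against 40.1 FPKM for GE22241 on 3L. On v2_chr3L_random_059, GE23105 and GE22569 had 91.8 and 94.2 FPKM, and the other 2 pairs of that run were at 0 in both places. All 6 models in a run on v2_chr3L_random_094 were at 0, as were all 6 partners on 3L. The run on v2_chr3L_random_112 held the largest difference among expressed pairs, with GE22809 at 2.49 FPKM and GE19796 at 1.31 FPKM.

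**Figure D5:**
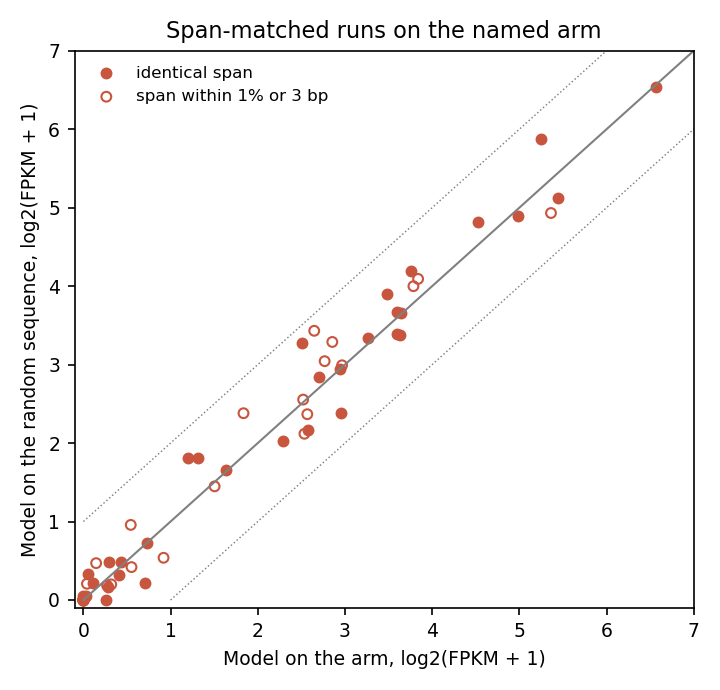
Models in the 16 runs that fell on the named arm: log2(FPKM + 1) of the model on the arm (horizontal) against that of its span-matched partner on the random sequence (vertical), 65 pairs. The solid line marks equal values and the dotted lines a difference of 1 on this scale; filled points have identical spans.

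Similar spans also recurred between and within random sequences, and whether these models are copies was not tested. Nplp3 and GE23099 both spanned 377 bp, and each was preceded on its sequence by a model of 764 bp and, further off, by one of 456 bp. Their levels were 958 and 1173 FPKM, a ratio of 1.22. The 764-bp models were at 0.437 FPKM (GE23178) and 0.128 FPKM (GE23098), and both 456-bp models were at 0. The starts of these models were 7746 and 4106 bp apart on the sequence of Nplp3 and 7886 and 4062 bp apart on the other. Between the 456-bp and 764-bp models lay GE22801 (418 bp) on the sequence of Nplp3 and GE22899 (494 bp) on the other. Before the 456-bp models lay GE22803 (414 bp) and GE22900 (447 bp). The matched models were therefore not a run of consecutive matching spans. GE23101, the highest off-arm model, lay beyond GE23099 on its sequence, and the sequence of Nplp3 had no model after Nplp3. On v2_chr3L_random_063, 4 consecutive models with spans of 1161, 1265, 1282 and 915 bp were followed by 4 with spans of 1161, 1269, 1272 and 915 bp. The first set had 2.58 FPKM (GE22878), 0.339 FPKM (GE22877), 9.57 FPKM (GE22876) and 5.28 FPKM (GE22875), and the second had 4.35 FPKM (GE22874), 0.652 FPKM (GE22873), 9.57 FPKM (GE22872) and 2.80 FPKM (GE22871). All 8 lay within the span of GE23128, at 9.67 FPKM. These sets were chosen after their values were seen.

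Models with the same span and the same deposited value were more frequent off the arms. Among models above 0, 81 of 1040 off the arms (7.79%) shared both with another model of the library, against 283 of 13333 on the arms (2.12%). These shares were not matched for span or level, and off-arm models were shorter and more often below 1 FPKM. The share was 13.4% of unassigned, 5.72% of other random and 4.21% of heterochromatic models. With both members off the arms there were 13 such sets of 28 models, 11 of them on more than 1 sequence. The highest were GE15127 and GE14578, both of 375 bp and 56.1 FPKM on different unassigned sequences, and GE18041 and GE14753, both of 156 bp and 10.6 FPKM. A span of 156 bp is below the estimated fragment length of 165 bp, so the level of that pair is uncertain. Only 5 of the 13 sets were at 1 FPKM or more, and the lower values stand for few fragments.

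Overlap with a neighbouring model was found for 51 off-arm models (3.66%) and for 1004 arm models (6.84%). The off-arm share includes 396 models that were alone on their sequence and so could not overlap another. These shares are therefore not like for like, and no conclusion is drawn from them.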

How the data were processed

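RNA-seq of heads gave 1 library for D. yakuba and 1 for D. virilis. The deposited values are FPKM, with 1 table per library that lists identifier, name and locus of each model, per the file headers. The submitters' processing notes name TopHat and Cufflinks. Their versions, the genome build, the annotation, strand use and the handling of fragments with several alignments: not given in the sources used here. Locus starts were taken to count from 0 and 1 was added. No genome sequence was used.

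Off-arm models were taken by sequence name. Yh was counted as heterochromatic and Uh as unassigned. Expressed means 1 FPKM or more. All models were kept, and no pseudocount was used except in log2(FPKM + 1). Span includes introns. Arm shares were weighted over 10 bins of off-arm span. Depth was fitted on models of 900 to 4000 bp under 0.12 FPKM, where 38.4% of values came within 0.04 of a whole fragment, against a median of 4.27% over all settings searched. The off-arm share was 23.3% of 43 models. The run search and depth fit were also run on simulated data. The simulated runs were planted within the span tolerance, so finding them would show only that the search works as written. The depth simulation used a set share of models with introns. Neither simulation is a check on the real data.

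Named models were those with a symbol, the 15 highest, the 5 highest of each class, the 5 longest, and the highest of each large sequence. Others, such as members of runs, were named after their values were seen. The members and lists were chosen with earlier results of these data known. Python 3.11.15, pandas 2.3.3, numpy 2.4.6 and scipy 1.17.1 were used.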

Additional observations from a re-analysis of the deposited data

How the results depend on the processing

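No paired analysis was possible because there is 1 library per species and no replicate. The off-arm minus arm differences in expressed share and in median log2 level were below 0 under every alternative run for them. Without models under 300 bp the off-arm share at 0 was 21.9%. Without unassigned sequences it was 19.7%, the share at 1 FPKM or more 47.3% and the median span 996.5 bp. With expressed set at 0.1 or 5 FPKM, the share was 60.7% or 24.0% and the median 2.74 or 13.9 FPKM, by construction. Leaving out models at 0 gave a median span of 979 bp. Without span matching the difference in share was -28.7 points. The off-arm minus arm median of log2(FPKM + 1) was -2.11, and it was -3.45 with a pseudocount of 0.1 FPKM and -1.67 without models at 0. The run search was devised after the data had been seen. Its 65 models on the named arm became 24 with identical spans and 41 in runs of 4 or more, and in both cases 0 models were in runs on other arms. With spans within 2%, 85 models fell on the named arm and 45 on others, and with runs of 2 or more identical spans 48 and 12. Leaving out the 65 models gave an expressed share of 38.9%. With Uh counted as heterochromatic, that class had 35.8% expressed. Values under about 0.048 FPKM rest on fewer than 3 fragments per kb. In 1 library, transcription, incomplete gene models and shared fragments cannot be told apart.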
